A study of Saccharomyces cerevisiae with 6 samples.

Results

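The genes described here carry secretory proteins into the endoplasmic reticulum (ER), fold them there and remove those that fail to fold. Their 43 open reading frames were listed by name, and each was found on the array with 1 probe set, so that 43 of the 5657 measured genes are described. None of the 43 probe sets was of a type that can read several genes. RNA came from the wild-type Saccharomyces cerevisiae strain CEN.PK 113-7D, a haploid laboratory strain, grown with aeration in baffled shake flasks. The groups were 3 cultures with BSA added and 3 control cultures without BSA, with 1 Affymetrix array per culture and replicates 1 to 3 called biological in the labels. BSA usually stands for bovine serum albumin, but the labels give neither the full name nor the dose. The treatment text says that samples were taken at 48 h, whereas the design text says that they came from the early glucose phase of batch growth, so the growth phase is not settled by the labels.

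Yeast proteins reach the ER by more than one route. The signal recognition particle (SRP) binds a signal sequence while the protein is still being made and docks at its receptor on the ER membrane, and other proteins arrive after synthesis and enter with the help of SEC62 and SEC63. Both routes lead to a narrow channel, behind which signal peptidase cuts off the signal, Hsp70 chaperones and disulfide-forming enzymes fold the chain, and ubiquitin ligases mark failures for degradation in the cytosol. When unfolded proteins build up, the sensor IRE1 splices the mRNA of HAC1, whose product raises many of these genes, a circuit known as the unfolded protein response.

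Values are the deposited log2 expression values, in which a difference of 1 is a 2-fold change. The array medians ran from 7.61 to 7.62 without BSA and from 7.56 to 7.58 with BSA. The first quartiles ran from 6.89 to 6.92 without and from 6.76 to 6.80 with BSA. By both measures every BSA array lay below every control array, so small falls can depend on the scaling of the arrays. With 3 arrays a group, their number sets the precision. Across the 43 genes, 2 arrays of one group differed with an SD of 0.0535 to 0.188 and 2 arrays of different groups with an SD of 0.335 to 0.504. Control replicates 2 and 3 were the most alike, with an SD of 0.0535, whereas control replicate 1 differed from them with an SD of 0.182 and 0.188. A value is an average over a whole culture, so fewer cells with a transcript and less of it per cell cannot be told apart.

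With BSA, 6 of 8 genes of SRP and its receptor, 4 of 5 channel genes, 3 of 4 genes of the SEC62/SEC63 group and 4 of 4 signal peptidase genes were called lower, beside 47.1% of all genes. Among those that changed most, the channel gene SEC61, the SRP genes SRP21, SEC65, SRP68 and SRP72, SEC63 and the signal peptidase genes SEC11, SPC2 and SPC3 lay at about 51% to 62% of their control level. In the ER lumen, 3 of 6 genes of the Hsp70 system and 4 of 6 genes of disulfide formation were called lower. The main chaperone gene KAR2 and the exchange factor gene LHS1 did not pass the test, but KAR2 was called lower without control replicate 1. The disulfide isomerase gene PDI1 was 1.41-fold lower, and the prolyl isomerase gene FPR2 lay at about 56% of its control level. The genes that rose were UBC7 and HRD1, both of ER-associated degradation, and the SRP subunit gene SRP14.

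In all, 31 of the 43 genes were called lower and 3 higher, and 9 were not called, at a Benjamini-Hochberg adjusted p under 0.05 in limma over all 5657 genes. That is 72.1% lower and 6.98% higher, beside 47.1% lower and 28.3% higher among all genes. Called in either direction were 79.1% of the 43 genes and 75.4% of all genes. The median log2 fold change was -0.39 for the 43 genes and -0.13 for all genes, or -0.25 for the 43 genes relative to the median gene. Among the members, 15 (34.9%) were called lower by more than 0.5 on the log2 scale, as were 19.3% of all genes. None of the 43 changed by 2-fold, which 9% of all genes did in either direction. In 35 of the 43 genes (81.4%) BSA and control values did not overlap, against 79.5% of all genes, so that share is near the background.

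**Figure D1:**
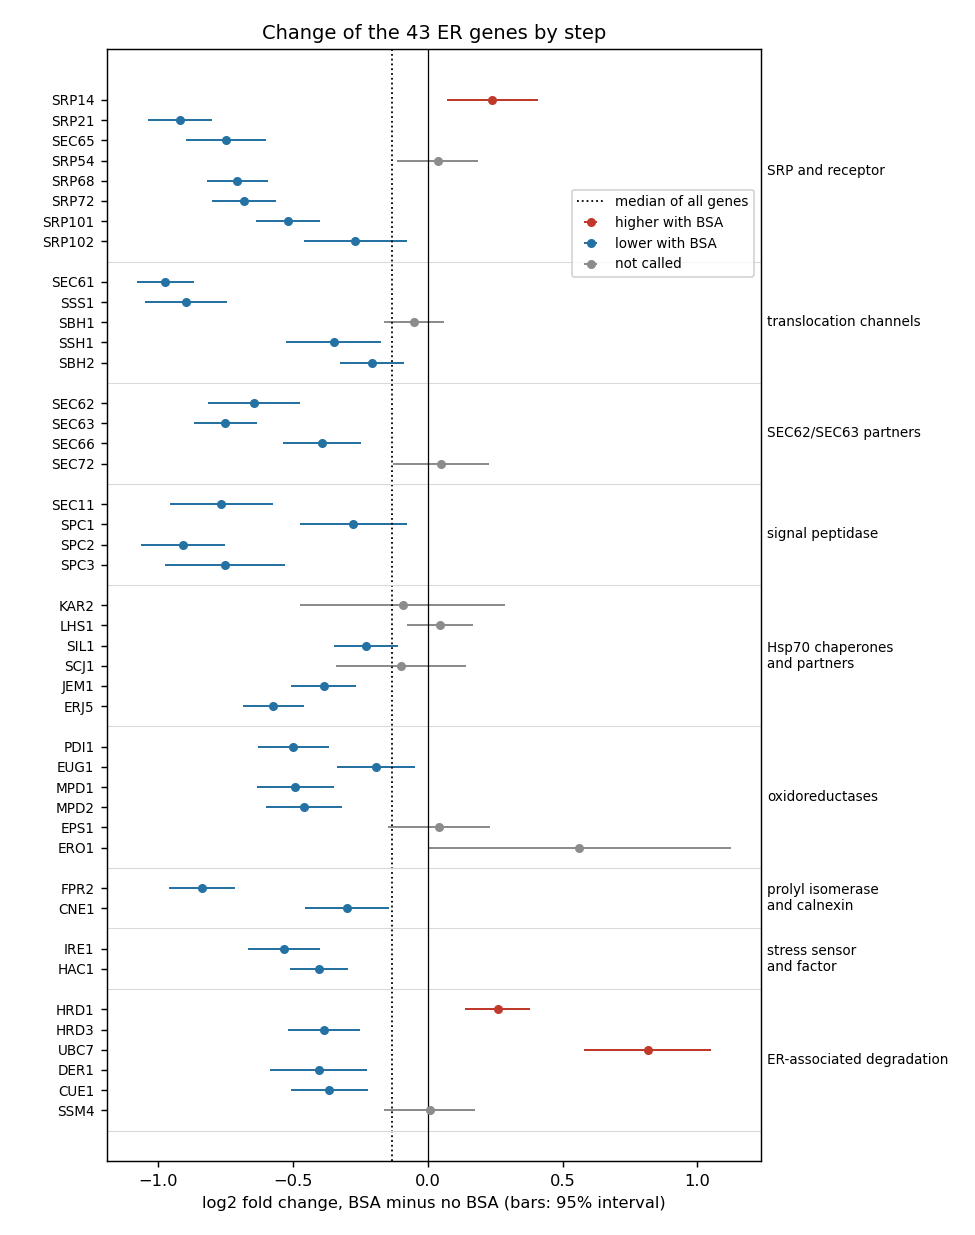
Log2 fold change (BSA minus no BSA, horizontal axis) of each of the 43 genes, grouped by step, with 95% intervals from limma; blue points were called lower, red points higher and grey points were not called, and the dotted line is the median of all genes. Most points of the entry steps (top) lie between -0.4 and -1.0, those of the Hsp70 group nearer to 0, and UBC7 (0.82) and HRD1 (0.26) lie above 0.

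The first step is recognition of the signal. Of the 8 genes of SRP and its receptor, 1 rose (12.5%) and 6 fell (75%), beside 28.3% called higher and 47.1% lower of all genes. Their median log2 fold change was -0.60. SRP21 (YKL122C), a subunit known from yeasts, read 8.72, 8.72 and 8.64 in control replicates 1 to 3 and 7.78, 7.73 and 7.81 with BSA. All BSA values lay below all control values, a change of -0.92 ± 0.05 (log2 fold change ± SE, n = 3 per group, limma adjusted p = 6.1e-06), and 2.95% of all genes changed by a lower value. SEC65 (YML105C), the counterpart of mammalian SRP19, changed by -0.75 ± 0.06. SRP68 (YPL243W) and SRP72 (YPL210C), which bind the SRP RNA as a pair, changed by -0.71 ± 0.05 and -0.68 ± 0.05. The groups of these 3 genes did not overlap either, as in 79.5% of all genes.

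The GTPase SRP54 (YPR088C), the subunit that holds the signal sequence, read 8.93, 9.06 and 9.06 without BSA and 9.03, 9.15 and 8.99 with BSA. These ranges overlap, and the difference of 0.04 had a 95% interval of -0.11 to 0.19. SRP14 (YDL092W), which belongs to the domain of SRP that slows translation, read 8.068, 8.004 and 7.976 without and 8.39, 8.25 and 8.13 with BSA. It was the one gene of the step that rose, by 0.24 ± 0.07 (limma adjusted p = 0.0172), with groups that did not overlap. The SRP14 call was lost without control replicate 2 or 3 (adjusted p = 0.0531 and 0.0599) and with the mean of these as 1 sample (adjusted p = 0.0557), and over all 19 alternatives it ran from 0.00394 to 0.0599. SRP54 was called higher under one scaling, the centring of arrays on their median deviation (adjusted p = 0.0381, 0.0381 to 0.917 over all alternatives).

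The 2 subunits of the SRP receptor both fell. The alpha subunit (YDR292C), the GTPase that meets SRP54, read 7.59, 7.49 and 7.52 without and 6.98, 7.05 and 7.03 with BSA, a change of -0.52 ± 0.05. The beta subunit (YKL154W), its anchor in the membrane, read 7.04, 7.09 and 7.05 without and 6.61, 6.93 and 6.83 with BSA, a change of -0.27 ± 0.08 (limma adjusted p = 0.018). Among the BSA cultures, replicate 1 was the lowest for both genes. Within arrays the change of the alpha subunit was lower than that of the beta subunit by a log2 difference of -0.25, and, in a pair chosen after the values were seen, the change of SRP72 minus that of SRP14 was -0.92. Neither pair overlapped between groups (exact permutation p = 0.1 each). The call of the beta subunit was lost after quantile normalization, median deviation centring and cyclic loess, without control replicate 2 and with control replicates 2 and 3 as 1 sample (adjusted p = 0.0505 to 0.384), 0.00109 to 0.384 over all alternatives.

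The channel itself is a trimer, and yeast has a pair of them. SEC61 (YLR378C), the pore of the main channel, read 9.85, 9.86 and 9.85 in the controls and 8.84, 8.90 and 8.90 with BSA. The groups were far apart for so small a spread, with means of 9.85 ± 0.00355 and 8.88 ± 0.0311 (SD, n = 3), and the change of -0.97 ± 0.05 (limma adjusted p = 2.99e-06) was the lowest of the 43 genes. SSS1 (YDR086C), the gamma subunit that both channels share, read 9.56, 9.41 and 9.38 without and 8.59, 8.48 and 8.58 with BSA, a change of -0.90 ± 0.06. SBH1 (YER087C-B), the beta subunit beside SEC61, read 9.36, 9.33 and 9.37 without and 9.35, 9.30 and 9.27 with BSA. Its groups overlap, and its change of -0.05 had a 95% interval of -0.16 to 0.06. SBH1 was called lower after quantile normalization (-0.19, adjusted p = 0.00713, 0.00713 to 0.885 over all alternatives).

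The second channel has its own pore and beta subunit. SSH1 (YBR283C), its pore, read 8.75, 8.94 and 8.92 without and 8.40, 8.57 and 8.59 with BSA, a change of -0.35 ± 0.08 (limma adjusted p = 0.0035). SBH2 (YER019C-A), its beta subunit, changed by -0.21 ± 0.05 (adjusted p = 0.00682), a call lost after median deviation centring (adjusted p = 0.194, 0.00102 to 0.194 over all alternatives). The groups of both genes did not overlap. Within arrays, the change of SEC61 was lower than that of SSH1 by a log2 difference of -0.62, and the change of SBH1 exceeded that of SBH2 by 0.16. In both pairs the 3 BSA arrays did not overlap the 3 control arrays, which gives 0.1 in a two-sided exact permutation test, the smallest p that 3 arrays against 3 allow. In a pair chosen after the values were seen, the change of SEC61 minus that of SBH1 was -0.92, again without overlap (exact permutation p = 0.1). Over all 10 pairs computed, 6 planned and 4 chosen later, the adjusted p was 0.1 for each.

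SEC62, SEC63, SEC66 and SEC72 form the membrane complex that helps finished proteins into the channel. SEC63 (YOR254C), whose J domain calls KAR2 to the channel mouth, read 8.02, 7.92 and 7.99 without and 7.25, 7.19 and 7.24 with BSA, a change of -0.75 ± 0.05. SEC62 (YPL094C) changed by -0.64 ± 0.07 and SEC66 (YBR171W) by -0.39 ± 0.06, and the groups of these 3 genes did not overlap. SEC72 (YLR292C), a partner of SEC66 on the cytosolic side, read 8.43, 8.27 and 8.19 without and 8.44, 8.29 and 8.32 with BSA. Replicate 1 was the highest in both groups, the ranges overlap, and the 95% interval of the change ran from -0.13 to 0.23.

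All 4 genes of signal peptidase, which cuts the signal sequence from the entering chain, were called lower, beside 47.1% of all genes. Their median was -0.76, which is -0.63 after subtracting the median of all genes. SPC2 (YML055W), a small subunit, read 8.51, 8.38 and 8.28 without and 7.511, 7.437 and 7.495 with BSA, a change of -0.91 ± 0.07. SEC11 (YIR022W), the catalytic subunit, changed by -0.77 ± 0.08 and SPC3 (YLR066W), which is needed for its activity, by -0.75 ± 0.09. SPC1 (YJR010C-A), another small subunit, read 8.01, 7.80 and 7.78 without and 7.61, 7.47 and 7.68 with BSA. Its groups came closest of the 4, at a change of -0.28 ± 0.08 (limma adjusted p = 0.0184), and the call was lost after median deviation centring, after cyclic loess and without BSA replicate 2 (adjusted p = 0.0605 to 0.178, 0.0155 to 0.178 over all alternatives). Control replicate 1 was the highest of the controls for all 4 genes, for SPC3 by 0.31 over the mean of the other two.

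**Figure D2:**
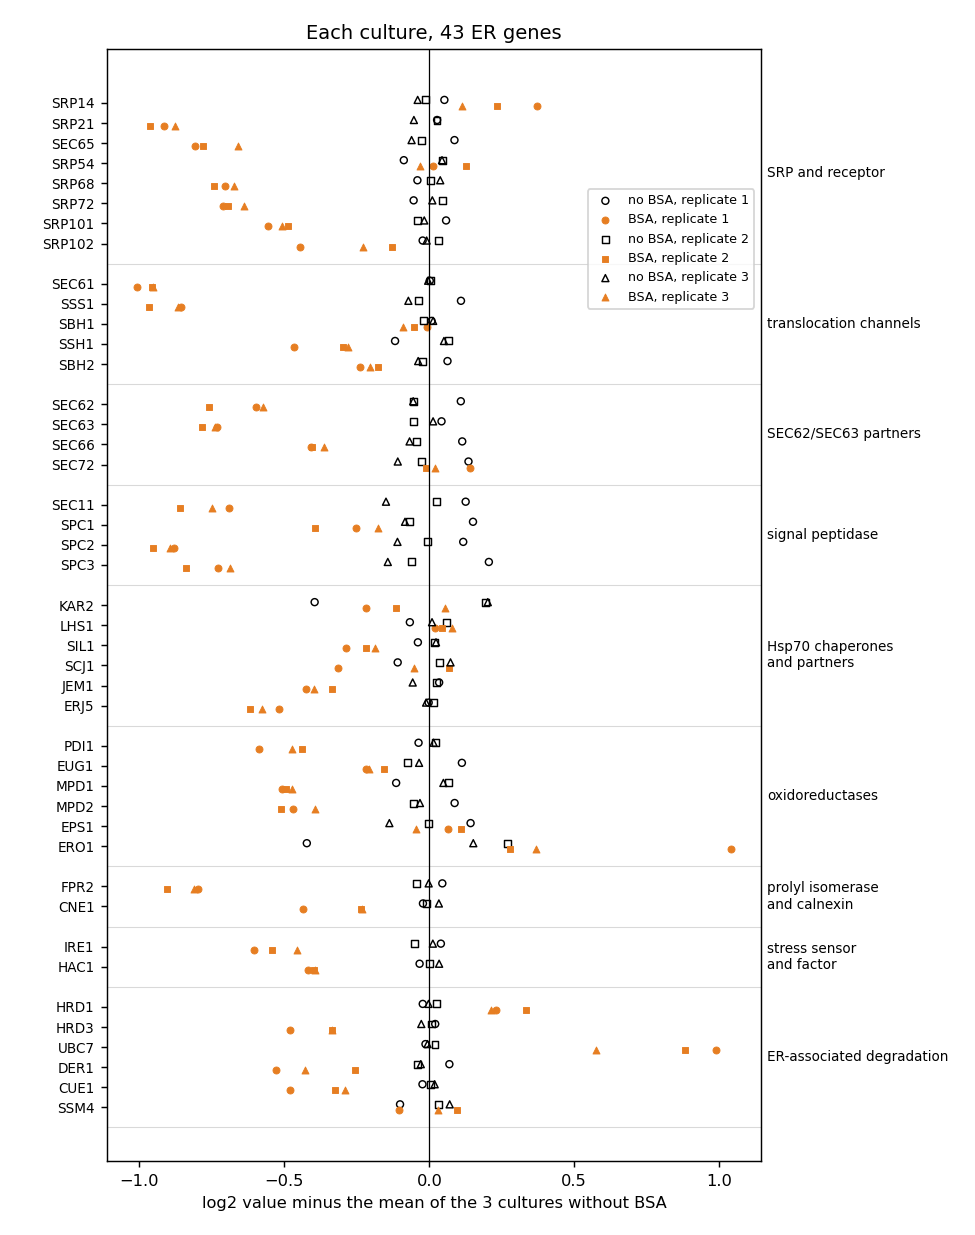
The log2 value of each culture minus the mean of the 3 control cultures (horizontal axis), for the 43 genes by step; open black symbols are controls and filled orange symbols BSA cultures, with a circle, square or triangle for replicate 1, 2 or 3. Control replicate 1 lies far below the other controls in KAR2 and ERO1, and the BSA values of the signal peptidase genes all lie left of the controls.

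In the ER lumen, the Hsp70 system draws the chain in and holds it while it folds. Of its 6 genes, 3 fell (50%, near the 47.1% of all genes) and 0 rose, also 0 by limma's p before adjustment at 0.05. Their median was -0.17 (-0.27 without control replicate 1), and -0.03 once the median of all genes was subtracted. Without that subtraction, centring on the median deviation gave -0.033 and cyclic loess -0.0368. KAR2 (YJL034W), the Hsp70 known as BiP in mammals, read 10.21, 10.80 and 10.81 without and 10.39, 10.50 and 10.66 with BSA. Control replicate 1 lay below every BSA culture and the other controls above every one, so that the change of -0.09 had a wide 95% interval of -0.47 to 0.29. Without control replicate 1, KAR2 was called lower (-0.29, adjusted p = 0.0168, 0.0168 to 0.984 over all 19 alternatives). LHS1 (YKL073W), which reloads KAR2 with ATP, read 7.64, 7.77 and 7.72 without and 7.73, 7.75 and 7.79 with BSA. Here the groups overlap with little spread, and the 95% interval was -0.08 to 0.17. LHS1 was called higher after median deviation centring (0.18, adjusted p = 0.0146) and after cyclic loess (0.17, adjusted p = 0.0219), 0.0146 to 0.824 over all alternatives.

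The J-domain partners of KAR2 differed among themselves. ERJ5 (YFR041C) read 7.40, 7.42 and 7.39 without and 6.89, 6.79 and 6.83 with BSA, a change of -0.57 ± 0.05. JEM1 (YJL073W), which also acts in nuclear fusion, changed by -0.39 ± 0.05. SCJ1 (YMR214W), a soluble lumenal J protein, read 8.02, 8.16 and 8.20 without and 7.81, 8.19 and 8.07 with BSA, which overlap, with a 95% interval of -0.34 to 0.14. SIL1 (YOL031C), the other exchange factor of KAR2, changed by -0.23 ± 0.05 (limma adjusted p = 0.00393). That call was lost after quantile normalization, median deviation centring and cyclic loess (adjusted p = 0.0564 to 0.484, 0.000341 to 0.484 over all alternatives). In a pair chosen after the values were seen, the change of SEC63 minus that of KAR2 was -0.66 within arrays (exact permutation p = 0.1), with an SD of 0.38 among the controls and 0.14 with BSA. Without control replicate 1 it was -0.44, a setting chosen after seeing the data.

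Disulfide bonds are made by ERO1, which passes oxidizing power to PDI1 and its relatives. PDI1 (YCL043C), the essential isomerase, read 11.20, 11.26 and 11.25 without and 10.64, 10.79 and 10.76 with BSA. The groups were well apart, at a change of -0.50 ± 0.06 (limma adjusted p = 0.000125). MPD1 (YOR288C) and MPD2 (YOL088C), non-essential relatives of PDI1, changed by -0.49 ± 0.06 and -0.46 ± 0.06, also without overlap. EUG1 (YDR518W), another relative, changed by -0.19 ± 0.06 (adjusted p = 0.0222), a call lost under all 4 scalings and without BSA replicate 1 or 3 (adjusted p = 0.0511 to 0.949, 0.0132 to 0.949 over all alternatives). The change of PDI1 was lower than that of EUG1 by a log2 difference of -0.31 within arrays (exact permutation p = 0.1, no overlap; -0.51 after quantile normalization). EPS1 (YIL005W), a membrane-bound relative, read 8.645, 8.498 and 8.364 without and 8.57, 8.61 and 8.46 with BSA, which overlap, with a 95% interval of -0.15 to 0.23.

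ERO1 (YML130C) was the most variable of the 43 genes. It read 8.05, 8.75 and 8.63 in the controls and 9.52, 8.75 and 8.84 with BSA. Replicate 1 was the lowest control and the highest BSA culture, and the groups were parted only between control replicate 2 and BSA replicate 2, which both round to 8.75. The difference of 0.56 ± 0.24 did not pass (limma adjusted p = 0.0646). It was called higher without control replicate 2 or BSA replicate 2 and after median deviation centring (adjusted p = 0.0461, 0.0474 and 0.0389), 0.0389 to 0.184 over all alternatives. ERO1 and KAR2 were the 2 members in which control replicate 1 lay more than 0.5 below the mean of control replicates 2 and 3, by -0.63 and -0.59. Of all 5657 genes, 53 did so, whereas in 79 control replicate 1 lay more than 0.5 above that mean, among them 0 members. The stress-induced cytosolic Hsp70 gene SSA4 was among the 53, with 8.68, 10.02 and 10.01 in the controls. The part of that culture's state in these results was not tested.

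Both genes beside the Hsp70 and disulfide systems fell. FPR2 (YDR519W), a prolyl isomerase of the ER, read 8.88, 8.79 and 8.83 without and 8.03, 7.93 and 8.02 with BSA, a change of -0.84 ± 0.05 (limma adjusted p = 1.08e-05). FPR2 lies next to EUG1 in the reference gene table of S. cerevisiae, assembly R64, and these 2 were the only adjacent genes among the 43. CNE1 (YAL058W), the yeast relative of calnexin, read 6.52, 6.53 and 6.58 without and 6.11, 6.31 and 6.31 with BSA, a change of -0.30 ± 0.07 that was not called after cyclic loess (adjusted p = 0.0673, 0.000365 to 0.0673 over all alternatives).

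Both genes of the stress circuit were lower. IRE1 (YHR079C), the sensor in the ER membrane, read 7.55, 7.46 and 7.52 without and 6.91, 6.97 and 7.05 with BSA, a change of -0.53 ± 0.06 (limma adjusted p = 9.56e-05). HAC1 (YFL031W), the transcription factor, read 10.37, 10.40 and 10.44 without and 9.99, 10.01 and 10.01 with BSA, a change of -0.40 ± 0.05 (adjusted p = 0.00013). The groups of neither gene overlapped, and both calls held under each of the 18 alternatives run for IRE1 and the 19 run for HAC1. The deposited table gives 1 value for HAC1 and does not separate its spliced from its unspliced mRNA, so the state of the circuit was not measured.

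**Figure D3:**
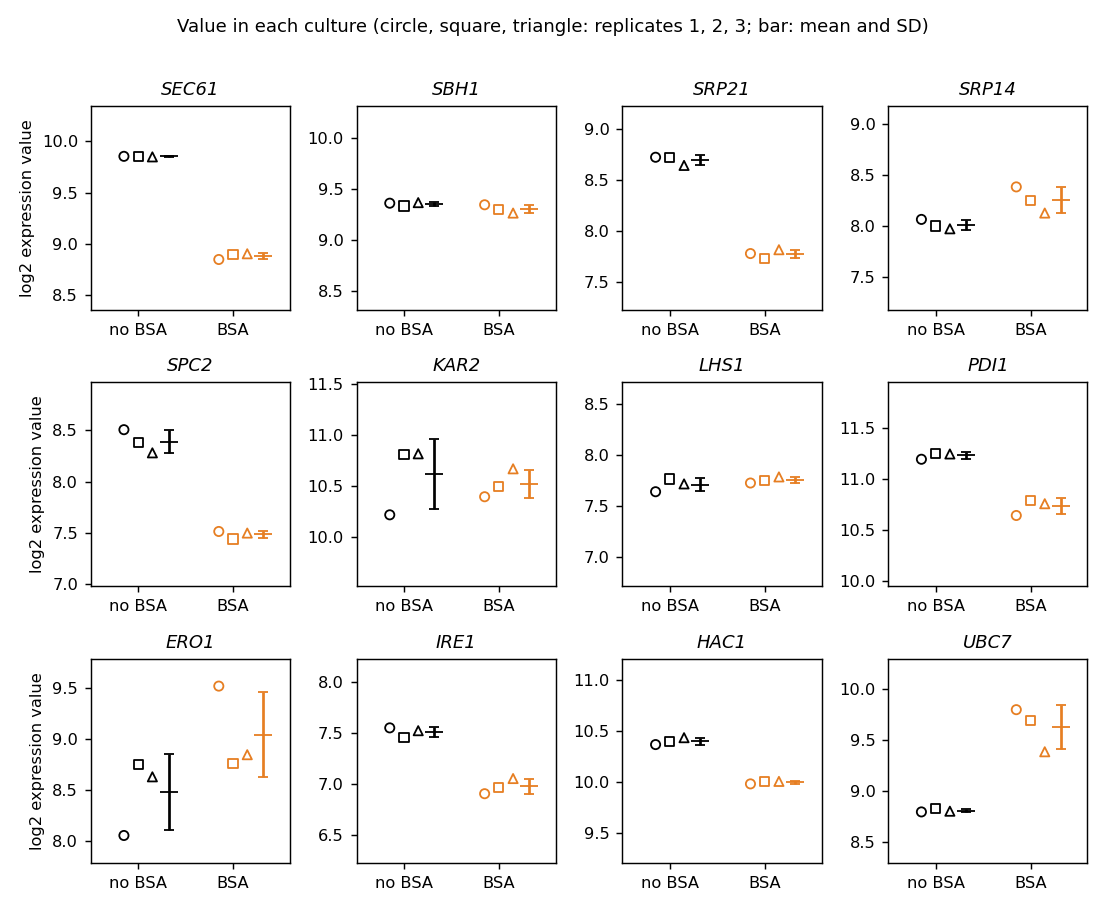
Log2 expression value (vertical axis, 2 log2 units in each panel) in each culture for 12 of the genes; circles, squares and triangles are replicates 1, 2 and 3, and the bar gives the mean and SD of the 3 cultures. SEC61 shows tight groups near 9.85 and 8.88, whereas in KAR2 and ERO1 control replicate 1 (circle) lies below the other controls.

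ER-associated degradation moved in both directions, with 2 genes higher, 3 lower and a median of -0.18, close to that of all genes (difference -0.05). The shares called lower (50%) and higher (33.3%) were near the 47.1% and 28.3% of all genes. The sign of the median turned (0.0069) without the dimmest 25% of genes or the dimmer 50%, which leave 5 genes, and it was -0.0471 after median deviation centring and -0.0588 after cyclic loess. UBC7 (YMR022W), the ubiquitin-conjugating enzyme that serves both ligases of the ER membrane, read 8.80, 8.83 and 8.80 without and 9.80, 9.69 and 9.39 with BSA. All BSA cultures lay above all controls, and the 1.76-fold rise (0.82 ± 0.10, limma adjusted p = 0.000197) was larger than that of 90.0% of all genes. CUE1 (YMR264W), which anchors UBC7 at the membrane and activates it, went the other way and changed by -0.37 ± 0.06. The change of UBC7 minus that of CUE1, a pair chosen after the values were seen, was 1.18 within arrays (exact permutation p = 0.1, no overlap).

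The 2 ligases and their partners differed too. HRD1 (YOL013C), the ligase for lumenal and membrane proteins, read 7.77, 7.82 and 7.79 without and 8.02, 8.12 and 8.01 with BSA, a rise of 0.26 ± 0.05 (limma adjusted p = 0.00252). Its partner HRD3 (YLR207W), which receives the substrates, changed by -0.38 ± 0.06, and DER1 (YBR201W), which helps move them out of the ER, by -0.40 ± 0.08. None of the groups of these 3 genes overlapped. SSM4 (YIL030C), the gene of the ligase Doa10, read 8.91, 9.05 and 9.08 without and 8.91, 9.11 and 9.04 with BSA, which overlap, with a 95% interval of -0.16 to 0.18. Within arrays the change of HRD1 exceeded that of HRD3 by 0.64 and that of SSM4 by 0.25, both without overlap (exact permutation p = 0.1 each). The difference from SSM4 was 0.43 after quantile normalization.

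Neighbouring pathways were read from 7 further lists with 60 genes, of which 40 were called lower and 7 higher, beside 47.1% lower and 28.3% higher of all genes. In the ER membrane complex, which inserts membrane proteins, 7 of 8 genes fell, with a median log2 fold change of -0.49. EMC4 changed by -1.04 ± 0.09, EMC1 by -0.94 ± 0.07 and EMC5 by -0.79 ± 0.06. The EMC10 call (adjusted p = 0.0174) was lost after median deviation centring, after cyclic loess and without BSA replicate 2, up to an adjusted p of 0.135. Of 8 other ER folding genes, 6 fell, with a median of -0.51. They included the glucosidase gene CWH41 (-0.79 ± 0.08), which trims new glycans, the prolyl isomerase gene CPR5 (-0.68 ± 0.09) and GTB1 (-0.62 ± 0.07), the beta subunit of another glucosidase.

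Cytosolic chaperones that keep new chains fit for targeting had the lowest median of the 7 lists, -0.79, against -0.13 for all genes. Of the 12 genes, 9 (75%) were called lower and 1 (8.33%) higher, beside 47.1% and 28.3% of all genes. SSA4, used in heat shock, rose by 1.24 ± 0.34 from the uneven controls given above, and by 0.79 without control replicate 1 (limma adjusted p = 0.000257). SSA2 changed by -1.15 ± 0.14. EGD1, the beta subunit of a complex that binds new chains at the ribosome, changed by -1.10 ± 0.07. SSA1 and SSA2, and SSB1 and SSB2, are near-identical copies whose signals may be shared, and the probe set used for SSB1 is of a type that can read several genes. The SSA3 call (adjusted p = 0.035) was lost in 5 of 11 alternatives, namely without BSA replicate 1, control replicate 2 or control replicate 3, after cyclic loess and after median deviation centring, up to an adjusted p of 0.11.

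The SND and GET routes, which do not use SRP, had genes called in both directions, as had all genes. The shares of GET genes called lower (50%) and higher (33.3%) were near the 47.1% and 28.3% of all genes. The SND list has only 3 genes. In the SND pathway, SND1 rose 2.11-fold, reading 8.26, 8.38 and 8.41 without and 9.56, 9.39 and 9.33 with BSA, while SND2 (-0.70 ± 0.10) and SND3 (-0.28 ± 0.05) fell. In the GET pathway for tail-anchored proteins, the receptor genes GET1 (-0.57 ± 0.06) and GET2 (-0.54 ± 0.05) and GET4 fell, and MDY2 rose by 0.52 ± 0.08. GET3, its ATPase, was called higher (0.18 ± 0.07, adjusted p = 0.0378), but passed in 4 of 11 alternatives, up to an adjusted p of 0.916. It was lost after quantile normalization, with a replicate block, and without any 1 of the control replicates or BSA replicate 2 or 3.

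Of 18 other genes of ER-associated degradation, 11 fell (61.1%) and 3 rose (16.7%), with a median of -0.34. Among all genes, 47.1% were called lower and 28.3% higher. UFD1, which works with CDC48 in pulling proteins from the membrane, rose by 0.78 ± 0.06, and UBC6, the other conjugating enzyme of the Doa10 branch, by 0.46 ± 0.06. The third that rose was ASI3 (0.45 ± 0.09), of a ligase at the inner nuclear membrane. Of the other ASI genes in the list, ASI1 was called lower (-0.37 ± 0.06). ASI2 was not called (limma adjusted p = 0.458), but was in 2 of 11 alternatives. UBC1 (-0.53 ± 0.05), a conjugating enzyme that also serves HRD1, and the mannosidase gene MNS1 (-0.52 ± 0.05) fell. The CDC48 call, at -0.24 ± 0.05, was lost after median deviation centring (adjusted p = 0.0577). Of 5 other factors of the unfolded protein response, the phosphatase gene PTC2 (-0.45 ± 0.05) and TRL1 (-0.20 ± 0.06), the ligase that joins the HAC1 exons, were called lower. That share of 40% was under the 47.1% of all genes, and the list median of -0.15 was near the -0.13 of all genes. The TRL1 call was lost in 5 of 11 alternatives (quantile normalization, median deviation centring, cyclic loess, and without control replicate 2 or 3), up to an adjusted p of 0.891.

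**Figure D4:**
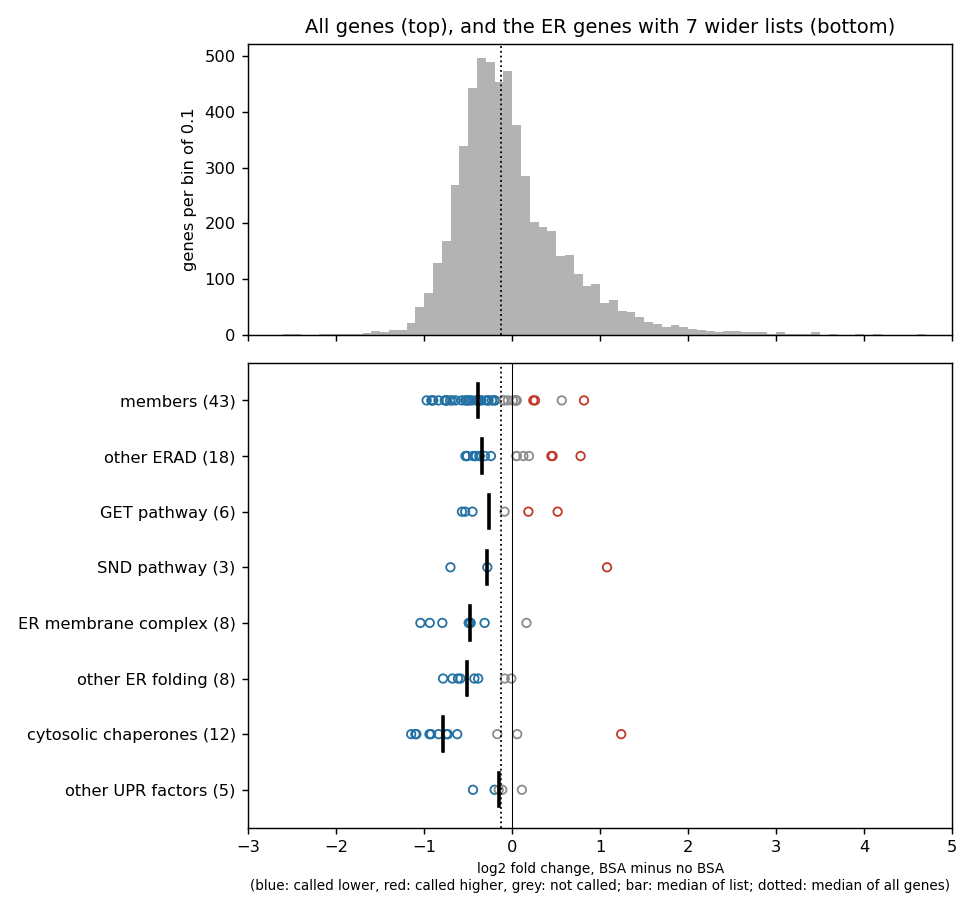
Top, number of all 5657 genes (vertical axis) by log2 fold change (BSA minus no BSA, horizontal axis, bins of 0.1). Bottom, each gene of the 43 members and of the 7 further lists on the same axis, coloured by call, with a bar at the median of the list and a dotted line at the median of all genes (-0.13); the medians of the members (-0.39) and of the cytosolic chaperones (-0.79) lie left of that line.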

How the data were processed

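The authors deposited log2 expression values per probe set and a table that pairs probe sets with ORFs. PLIER and R 2.10.1 are named in the submitters' processing notes, with no role given. The sources used here do not state background correction, normalization or filters, and base 2 of the logarithm was taken from the range of the values. Symbols came from the reference gene table of assembly R64, which names 5646 of the 5657 ORFs and all 43 members.

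A gene with several probe sets was read from the brightest by mean value (5705 probe sets, 5657 genes). BSA was compared with no BSA in limma 3.58.1 under R 4.3.3 (lmFit and eBayes, no covariate), with Benjamini-Hochberg adjustment over all genes and calls at an adjusted p under 0.05. The 4 scalings meant are quantile normalization, centring on array medians, centring on the median deviation from the gene means, and cyclic loess. Within-array differences of gene pairs were tested by two-sided exact permutation. The fit was also run on simulated data with few changed genes and no shift between arrays. These arrays differ from that setting, so the run checks the code only. Every member is named, the SRP receptor genes by subunit and ORF. The value of every array is given for the 6 genes SEC61, KAR2, PDI1, ERO1, HAC1 and IRE1, genes called higher or not called, and the largest and smallest absolute change of each step, and up to 3 largest changes of each further list are named. Genes of the further lists named beyond that (CDC48, GET3, GET4, EMC10, SSA1, SSA3, SSB1, SSB2, ASI1, ASI2, ASI3, UBC6), values per array of other members, and 4 of the gene pairs were chosen after values were seen. The members and lists were chosen with earlier results of these data known. Protein and promoter features planned for the members were not analysed here.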

Additional observations from a re-analysis of the deposited data

How the results depend on the processing

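Of the 43 members, 31 kept their call in each alternative run and 12 changed it in at least 1 of up to 19, as given beside each gene. At an adjusted p under 0.01, 2 members were higher and 28 lower, against 1360 higher and 2312 lower of all 5657 genes. No member was called at a change of at least 2-fold (0 higher, 0 lower, against 3 and 31 called in limma at any size). Centring on the median deviation gave 6 higher and 26 lower members, against 2074 higher and 2056 lower of all 5657 genes. Removal of the dimmer 50% of genes left 28 members, of which 3 were higher and 16 lower. Of the 2828 genes left in all, 1045 were higher and 1187 lower. Leaving out each replicate gave 2 to 4 higher and 30 to 32 lower members. The scalings moved the balance of all genes. Of the calls, 37.6% were higher as deposited, 50.2% after centring on the median deviation and 48.9% after cyclic loess. The members' median of -0.39 became -0.25 after centring on the median deviation, -0.29 after cyclic loess, -0.31 without the dimmer 50%, and -0.41 to -0.34 when a replicate was left out. Centring on the median deviation gave step medians of -0.47 (SRP and receptor), -0.22 (channels), -0.39 (SEC62/SEC63 partners), -0.63 (signal peptidase), -0.033 (Hsp70 system), -0.19 (oxidoreductases), -0.44 (FPR2 and CNE1), -0.34 (IRE1 and HAC1) and -0.0471 (degradation). Cyclic loess gave -0.44 (SRP), -0.42 (SEC62/SEC63), -0.0368 (Hsp70), -0.15 (oxidoreductases), -0.48 (FPR2 and CNE1), -0.35 (IRE1 and HAC1) and -0.0588 (degradation). Quantile normalization gave -0.53 (SRP), -0.48 (channels) and -0.23 (oxidoreductases), and centring on array medians -0.56 (SRP), -0.28 (oxidoreductases), -0.53 (FPR2 and CNE1) and -0.43 (IRE1 and HAC1). Array weights gave -0.57 (SRP), -0.26 (oxidoreductases) and -0.53 (FPR2 and CNE1). Without the dimmer 50% the medians were -0.32 (SRP), -0.30 (SEC62/SEC63), -0.84 (FPR2 alone) and -0.40 (HAC1 alone), and the sign turned for the oxidoreductases (0.0423, 3 genes). Degradation turned to 0.0069 without the dimmest 25% and without the dimmer 50%, with 5 genes left. Without the dimmest 25% the oxidoreductases had -0.21 and FPR2 alone -0.84. These turns follow from the genes left in the list. Leaving out a replicate gave -0.27 to -0.12 for the Hsp70 system, lowest without control replicate 1, and -0.35 to -0.28 for the oxidoreductases. Of the 60 genes of the further lists, 13 were higher and 36 lower after centring on the median deviation. After cyclic loess, 12 were higher and 37 lower. All 5657 genes had 2074 higher and 2056 lower under the first scaling, and 1986 higher and 2073 lower under cyclic loess. The pair difference of PDI1 and EUG1 became -0.51 (quantile) and -0.43 (loess), that of HRD1 and SSM4 0.43 (quantile), and that of HRD1 and HRD3 0.52 (quantile) and 0.54 (loess). For the pairs, these scalings and leaving out a replicate were chosen after seeing the data. The cause of the moves under other scalings was not tested. Deviations of same-numbered samples correlated at 0.103, 0.0187 and 0.0426, and not every sample correlated best with its own number. No pairing by replicate number was seen, though with 3 samples a group these correlations cannot exclude it. With the replicate block, 1597 genes were higher and 2669 lower, with 3 members higher and 31 lower and a median of -0.39.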
